A study of Homo sapiens with 7 samples.

Results

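The cells described here are 374 epithelial cells from a day 11 library of heart cells that were derived from H1, a widely used line of human embryonic stem cells. They were chosen by their counts: a cell was taken when at least 3 of the 5 genes EPCAM, CLDN4, CLDN7, RAB25 and WFDC2 had 1 or more UMI, a unique molecular identifier that stands for 1 captured transcript. The rule took 374 of the 5683 cells of the day 11 table (6.58%, exact binomial 95% interval 5.95 to 7.26) and left 5309 other cells. The study made heart muscle of the atrioventricular canal type from pluripotent stem cells through Wnt signalling, per its title, and its single-cell tables held 15305 cells in all. Besides day 11, which carries no treatment in its labels, there was a day 15 library labelled CHIR and a day 15 library labelled DMSO. CHIR is a usual short name for a GSK3 inhibitor, used to switch on Wnt signalling, DMSO is a solvent used as vehicle, and the labels used here give no dose or timing. Each of these 3 groups was 1 library of H1 cells, dissociated with collagenase and Accutase and sorted for live cells with the dye DAPI. With 1 library per group, no difference below has a replicate check, no p-value is given, and every interval covers counting error only. The protocol text given with the day 11 sample names day 15.

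Epithelial cells are held to each other by cadherin and by claudins, the strand proteins of tight junctions, and traffic cargo to a sealed upper surface. In the embryo, heart muscle forms beside the foregut endoderm, the sheet that gives rise to thyroid, lung, liver and pancreas, and both tissues exchange signals. The early liver bud is known for secreting AFP, transthyretin (TTR), albumin and apolipoproteins under the control of FOXA, HNF4 and HHEX factors. Surface ectoderm and amnion are other epithelia that can share EPCAM, keratins and claudins with endoderm.

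The label given to these cells was endoderm-like, with EPCAM, CLDN7, TTR, APOA2 and AFP as its markers. The data bear this out for part of the cells only. TTR, the thyroxine and retinol carrier, had a UMI in 196 of 374 cells (52.4%, 47.2 to 57.6), the apolipoprotein APOA2 in 109 (29.1%, 24.6 to 34.0) and alpha-fetoprotein AFP in 75 (20.1%, 16.1 to 24.5). None of these 3 genes was detected in 171 cells, and all 3 were detected in 66. Of the 6 endoderm factors FOXA1, FOXA2, FOXA3, HNF4A, ONECUT1 and HHEX, none had a UMI in 129 of the 374 cells. The cells are called epithelial cells in what follows, a name that stands for the rule. For the 53 cells of groups 4 and 9, described below, the data bear that name out only in part. Both groups carried much muscle RNA. E-cadherin CDH1 was found in 19 of the 44 cells of group 4 and in 1 of the 9 cells of group 9. The share was 74.6% over all epithelial cells and 1.81% over the other day 11 cells.

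The epithelial cells were read more deeply than the others, with a median of 15759 UMIs and 4673 genes per cell, against 12483 UMIs and 4349 genes in other cells. Their summed counts were 6036521 and 69869866 UMIs. Mitochondrial transcripts took 1.52% of the UMIs in epithelial cells and 2.75% in other cells, and ribosomal protein genes took 21.2% and 15.1%. Every cell had between 1811 and 5999 genes. When each cell was thinned to 5000 UMIs, which left out 1 epithelial and 157 other cells, TTR was found in 43.2% of epithelial and 3.63% of other cells, APOA2 in 24.1% and 0.543%, and AFP in 15.5% and 0.349%. Unthinned, 8.46% of the other cells had a TTR UMI, 1.21% an APOA2 UMI and 0.866% an AFP UMI, and the part of free RNA in these shares was not tested. Between 3 and 6 cell barcodes were shared by any 2 libraries, and none of them belonged to an epithelial cell of day 11.

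The rule genes themselves are given only as a description, since they chose the cells. Levels are UMIs per 1000000 UMIs (CPM), summed over all cells of a set. EPCAM, an adhesion protein of embryonic epithelia, stood at 509 CPM in epithelial cells and 14.8 CPM in other cells. WFDC2, a secreted protease-inhibitor family protein, stood at 834 and 20.4 CPM, and RAB25, a small GTPase of recycling endosomes in epithelia, at 212 and 3.95 CPM. The claudins CLDN4 and CLDN7 stood at 139 and 179 CPM in epithelial cells, against 1.20 and 1.13 CPM in other cells. Of the epithelial cells, 234 had all 5 genes, 96 had 4 and 44 had 3.

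Just inside the rule, the 44 cells with 3 genes had 467 CPM of TTR, 1677 CPM of the heart troponin TNNT2 and 9031 CPM of the atrial myosin light chain MYL7. Just outside it, the 336 cells with 2 genes had 37.9 CPM of TTR, 1670 CPM of TNNT2 and 10244 CPM of MYL7. The 234 cells with all 5 genes had 2817 CPM of TTR, 150.2 CPM of TNNT2 and 719 CPM of MYL7. Cells at the edge of the rule thus carried as much troponin RNA as the cells with 2 genes just outside it. All 5309 other cells together had 2086 CPM of TNNT2. Of the 336 cells with 2 genes, 174 had EPCAM and WFDC2.

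**Figure D1:**
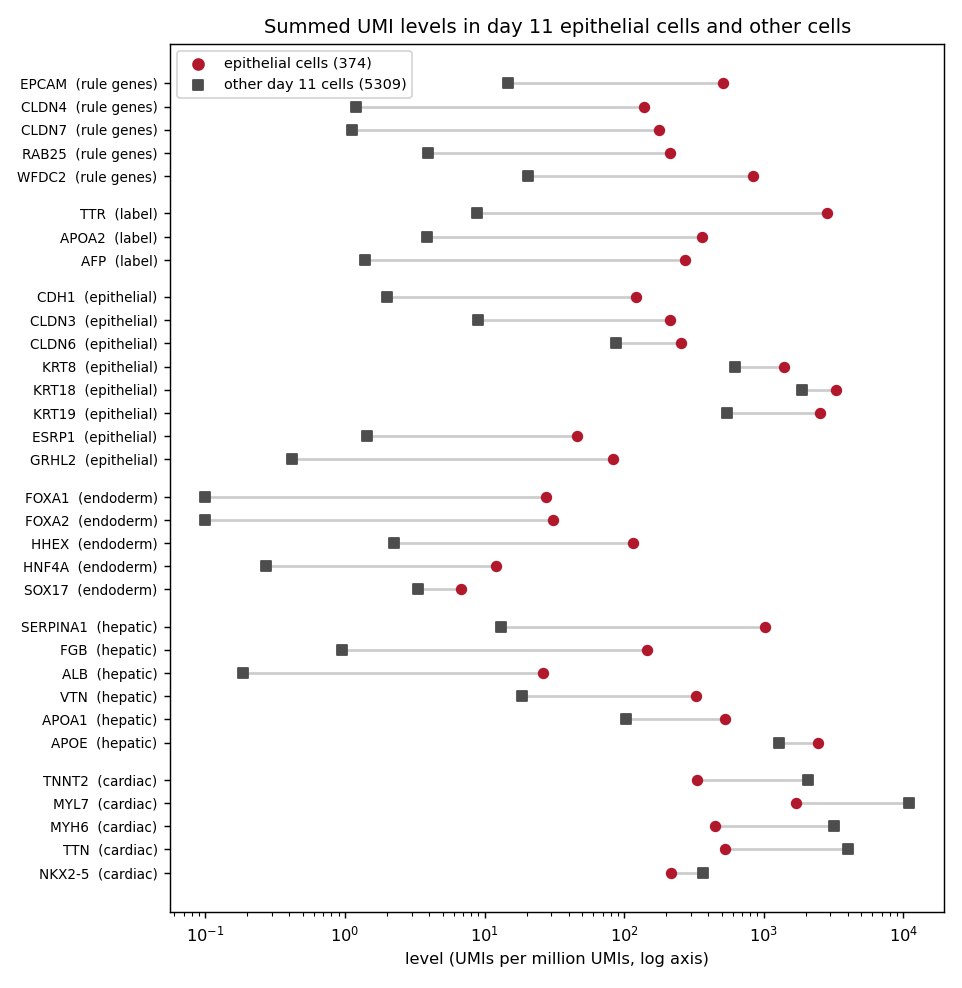
Levels of named genes in the 374 epithelial cells (red circles) and the 5309 other day 11 cells (grey squares), as CPM on a log axis, 1 row per gene with its role in brackets. TTR lies at 2835 against 8.82 CPM, and the cardiac genes at the bottom lie the other way round, with TNNT2 at 331 against 2086 CPM.

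Across the 19915 genes with at least 20 UMIs, rule genes left out, 1980 (9.94%) were higher by 2-fold or more in epithelial cells. Another 3089 (15.5%) were lower by 2-fold or more, and the log2 ratio had a median of -0.14. In the text below, higher and lower mean past 2-fold in the ratio of CPM, and the counts for gene lists are read against these shares. All genes of this contrast come from the cells the rule chose, so the counts are descriptions.

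Of 20 junction genes measured besides the rule genes, 10 were higher and 1 was lower. Their median log2 ratio was 1.12. E-cadherin CDH1 had 738 UMIs in epithelial cells and 140 in all other cells, a CPM ratio of 61.0 (50.9 to 73.6). The claudin CLDN3 was at 214 and 8.96 CPM, and CLDN6, a claudin of embryonic epithelia, at 256 and 87.5 CPM. Cingulin CGN, a tight junction plaque protein, was 20.6-fold higher (17.0 to 24.9). The general plaque protein TJP1 had 196 CPM in epithelial and 215 CPM in other cells, and desmoplakin DSP had 371 and 355 CPM. The 1 lower gene was PKP2, the plakophilin of heart muscle junctions, at 102 and 276 CPM.

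The list of polarity, splicing and trafficking genes had 18 of 22 higher and 0 lower. The median of the list on the log2 scale was 3.10. GRHL2, a grainyhead factor that drives epithelial genes, stood at 83.0 CPM in epithelial cells and 0.415 CPM in other cells, with an interval of 138 to 302 for the ratio. ESRP1, which sets epithelial splicing, was 31.7-fold higher (25.2 to 40.3), and OVOL2, a repressor of mesenchymal genes, 35.1-fold higher (22.7 to 56.0). The protease inhibitors SPINT1 and SPINT2 were at 93.3 and 850 CPM in epithelial cells, against 5.20 and 378 CPM in other cells. Of 5 keratins, 4 were higher. KRT19 stood at 2539 CPM in epithelial cells and 542 CPM in other cells, KRT8 at 1385 and 622 CPM, and KRT7 at 17.1 and 0.988 CPM. KRT18 was between the thresholds at 3281 and 1868 CPM.

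Genes of the mesenchymal state stood the other way. Of 9 measured, 5 were lower and 1 was higher. On the log2 scale their median ratio was -1.47. N-cadherin CDH2 was at 211 CPM in epithelial cells and 583 CPM in other cells. The repressors of CDH1 that define this state were low too, ZEB1 at 6.63 and 56.4 CPM and ZEB2 at 14.6 and 72.1 CPM. The exception was fibronectin FN1, at 1618 and 697 CPM. Vimentin VIM had 1186 and 1413 CPM.

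**Figure D2:**
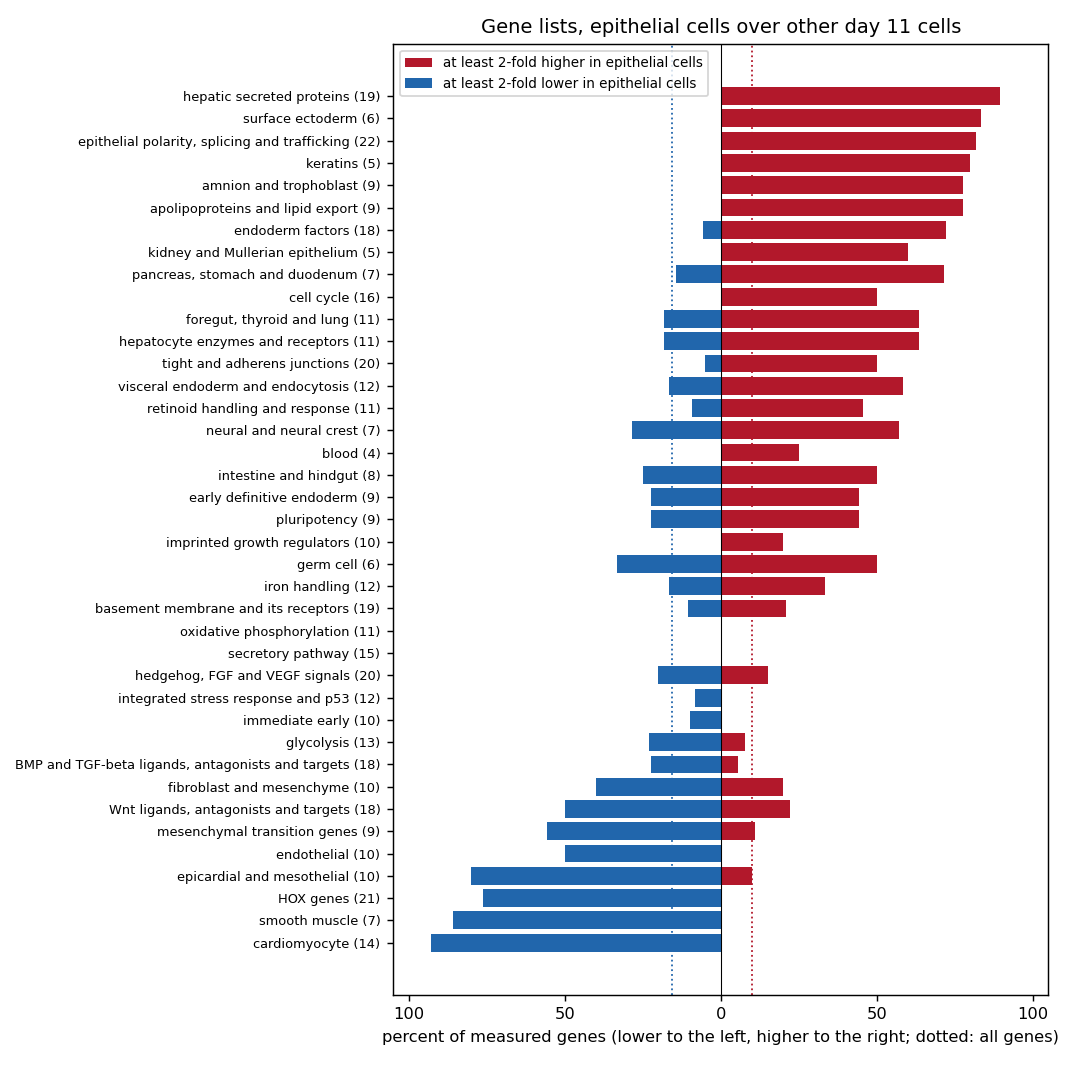
Percent of the measured genes of each list that were at least 2-fold higher (red, right) or lower (blue, left) in epithelial cells than in other day 11 cells, with the number measured in brackets. Dotted lines mark the same shares over all genes, 9.94% and 15.5%. Hepatic secreted proteins, with 17 of 19 higher, stand at the top and cardiomyocyte genes, with 13 of 14 lower, at the bottom.

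Most endoderm transcription factors were higher. Of 18 measured, 13 were higher and 1 was lower. Their median log2 ratio was 3.68. The pioneer factors FOXA1 and FOXA2 stood at 27.3 and 31.1 CPM in epithelial cells, and both at 0.100 CPM in other cells. FOXA2 had a UMI in 107 epithelial cells (28.6%) and in 6 other cells (0.113%). HHEX, the homeobox factor of the liver and thyroid buds, was at 115 and 2.26 CPM, with a ratio of 50.8 (42.7 to 60.7). The hepatic and pancreatic factor ONECUT1 was at 56.5 and 0.301 CPM. HNF4A, a master factor of hepatocytes, was at 12.1 and 0.272 CPM, and the nuclear receptor NR5A2 at 22.2 and 0.344 CPM. FOXA3 was 7.42-fold higher (5.89 to 9.32), CEBPA 10.3-fold (7.41 to 14.3), HNF4G 10.9-fold (7.15 to 16.5) and ONECUT2 60.2-fold (22.7 to 201).

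Some of the remaining factors are also used by the heart. TBX3, a T-box repressor of liver bud and pacemaker tissue, was at 190.3 CPM in epithelial cells and 12.5 CPM in other cells. GATA4, which both endoderm and heart use, was lower, at 90.3 and 381 CPM. GATA6 had 62.0 and 107 CPM, PROX1 had 26.2 and 40.5 CPM, and CEBPB had 35.6 and 37.7 CPM. NR0B2 had 0.166 and 0.301 CPM. SOX17, a factor of early endoderm and of endothelium, was 2.04-fold higher (1.42 to 2.85), at 6.79 and 3.33 CPM. Without the 53 cells of the muscle-carrying groups 4 and 9 described below, its log2 ratio was 0.08. Of 9 early definitive endoderm genes, 4 were higher and 2 lower.

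Secreted proteins of the early liver had the highest median ratio of any list, though single genes of other lists, such as SHH and ARG1, had higher ratios. Of 19 measured, 17 were higher and 0 lower. The median of the list on the log2 scale was 6.58. TTR stood at 2835 CPM in epithelial cells and 8.82 CPM in other cells, a ratio of 322 (297 to 349). The protease inhibitor SERPINA1 was at 1017 and 13.1 CPM, AFP at 272 and 1.40 CPM, and vitronectin VTN at 327 and 18.6 CPM. The fibrinogen chains FGA, FGB and FGG stood at 43.9, 145 and 37.3 CPM in epithelial cells, against 0.172, 0.945 and 0.372 CPM in other cells. Albumin ALB, the main plasma protein of mature liver, was at 26.0 and 0.186 CPM. Of 9 apolipoprotein and lipid export genes, 7 were higher. On the log2 scale their median ratio was 2.47. APOA2 was at 358 and 3.85 CPM, APOA1 at 527 and 103 CPM, and APOB at 31.0 and 0.773 CPM. The share of cells with an APOA1 UMI was nearly the same, 58.3% of epithelial and 57.6% of other cells. APOE, which many tissues make, had 2441 and 1284 CPM.

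These transcripts were unevenly spread over the cells. TTR per cell reached 52076 CPM, with a median of 47.8 CPM, and 115 epithelial cells were at 1000 CPM or more while 178 had no UMI. APOA2 had no UMI in 265 epithelial cells and AFP none in 299, while their highest cells had 6694 and 9205 CPM. SERPINA1 was found in 93 epithelial cells (24.9%), against 177 other cells (3.33%). Of the 109 cells with APOA2, 107 also had TTR, and of the 46 cells with HNF4A all 46 had TTR.

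Mature liver genes were rarer. Of 11 hepatocyte enzymes and receptors, 7 were higher and 2 lower. The urea cycle enzyme ARG1 was at 19.5 CPM in epithelial cells and 0.0429 CPM in other cells, TDO2 of tryptophan breakdown at 24.2 and 0.429 CPM, and the receptor subunit ASGR1 at 51.0 and 22.7 CPM.

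Genes of the pharynx and thyroid bud marked other cells of the set. Of 11 foregut, thyroid and lung genes, 7 were higher and 2 lower. PAX1, a factor of the pharyngeal pouches, stood at 24.4 CPM in epithelial cells and 0.100 CPM in other cells. FOXE1, a thyroid bud and pharynx factor, was at 12.3 and 0.0429 CPM, and NKX2-1, of thyroid and lung, at 5.14 and 0.0572 CPM. ISL1, a LIM homeobox factor of the pharynx and the heart field, was at 146 and 36.2 CPM. Of 7 pancreas, stomach and duodenum genes 5 were higher, all but the hormone SST under 6 CPM. SST had 81.8 CPM in epithelial and 32.0 CPM in other cells.

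MIR205HG, the host transcript of an epithelial microRNA, was among the highest ratios of all genes, at 314 CPM in epithelial cells and 1.00 CPM in other cells (ratio 313, 247 to 403). It had a UMI in 207 epithelial cells (55.3%) and 58 other cells (1.09%). The mature arm is printed because its host gene leads the largest group of epithelial cells. The microRNA itself, which is known for repressing ZEB1 and ZEB2, was not measured. RefSeq places it at chr1:209432166-209432187 on the plus strand of GRCh38.p14, and capitals mark the seed, bases 2 to 8.
hsa-miR-205-5p: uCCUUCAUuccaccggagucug

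Markers of surface ectoderm and amnion were present as well. Of 6 surface ectoderm genes 5 were higher. Their median log2 ratio was 4.29. Of 9 amnion and trophoblast genes 7 were higher. The lists share TFAP2A, and the amnion list also holds ISL1. GABRP, a GABA receptor subunit of amnion and other epithelia, stood at 22.0 CPM in epithelial cells and 0.0716 CPM in other cells. TFAP2A, a factor of ectoderm, was at 18.1 and 0.215 CPM, and VTCN1, a cell surface protein of amnion, at 12.1 and 0.129 CPM. GATA3 was at 92.9 and 12.4 CPM. TP63, the factor of stratified epithelia, was at 4.47 and 0.186 CPM. These 2 genes did not follow GABRP over the groups described below. Group 1, led by MIR205HG, held 21 of the 27 UMIs of TP63 in epithelial cells, and group 7, led by GABRP, held 0. GATA3 was at 204 CPM in group 1 and 77.3 CPM in group 7.

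GABRP was seldom found in the same cell as TTR, FOXA2 or HHEX, while GATA3 and ISL1 were also carried by groups with TTR described below, GATA3 by 22 of 50 cells of group 3 and ISL1 by 32 of 34 cells of group 6. Of the 30 cells with GABRP, 29 also had TFAP2A, 4 had TTR, and 0 had a UMI of FOXA2, HHEX or PAX1. Of the 74 cells with PAX1, 69 had MIR205HG, 37 had HHEX, 15 had TTR, 11 had FOXA2 and 1 had APOA2. Of the 109 cells with APOA2, 91 had HHEX, 66 had AFP and 15 had MIR205HG. These counts follow from depth as well as from expression, since a gene of a few UMIs per cell is often missed.

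Of 20 hedgehog, FGF and VEGF genes, 3 were higher and 4 lower, shares near those over all genes, with a median log2 ratio of 0.05. The higher ones were SHH, IHH and FGFR4. Sonic hedgehog SHH, a ligand of gut endoderm, had 134 UMIs in epithelial cells and 2 in other cells, and was found in 46 epithelial cells (12.3%). Indian hedgehog IHH had 52 UMIs in epithelial cells and 0 in the other 5309 cells. Their receptor PTCH1, itself a target, had 28.3 and 21.9 CPM. Of 18 genes of the Wnt list, 4 were higher and 9 lower. The ligands WNT4 and WNT6 were at 11.1 and 13.6 CPM in epithelial cells, against 0.315 and 0.0716 CPM in other cells. WNT2 and WNT5B, the secreted activator RSPO3 and the Wnt effector LEF1 were lower, LEF1 at 17.7 and 70.9 CPM. Of 18 BMP and TGF-beta genes, 1 was higher and 4 lower. The higher one was ID1, a direct BMP target, at 709 and 218 CPM, and BMP5 was at 31.8 and 228 CPM. FGFR4, an FGF receptor of endoderm, was 21.0-fold higher (14.7 to 30.4).

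Of 11 retinoid genes, 5 were higher and 1 lower. The retinoic acid synthesising enzyme ALDH1A1 was at 39.8 CPM in epithelial cells and 0.572 CPM in other cells, and CYP26A1, which degrades retinoic acid, at 7.79 and 0.143 CPM. HOX genes, which mark position along the trunk, were 16 of 21 lower and 0 higher. The median of the list on the log2 scale was -1.96. HOXB2 was at 14.1 and 49.8 CPM, HOXB3 at 6.63 and 29.0 CPM and HOXB4 at 5.96 and 27.3 CPM. Of 19 basement membrane genes, 4 were higher and 2 lower, LAMB1 at 229 and 64.6 CPM and FREM2 at 196 and 50.6 CPM among the higher.

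Muscle transcripts were low in epithelial cells. Of 14 cardiomyocyte genes, 13 were lower and 0 higher. On the log2 scale their median ratio was -2.56. Summed over the list they were 5286 CPM in epithelial cells and 31275 CPM in other cells. MYL7 had 1691 and 11002 CPM, titin TTN 529 and 4003 CPM, and MYH6 448 and 3188 CPM. The heart factor NKX2-5 had 215 and 367 CPM. Without groups 4 and 9 the median log2 ratio of the list was -4.14. Smooth muscle genes were 6 of 7 lower and epicardial genes 8 of 10 lower. Endothelial genes were 5 of 10 lower and 0 higher, and summed to 142 CPM in epithelial cells and 205 CPM in other cells. Fibroblast genes were 4 of 10 lower and 2 higher.

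Among 16 genes of the cell cycle list, 8 passed 2-fold upward and 0 downward. UBE2C, which acts at mitotic exit, was at 211 and 64.7 CPM, and TOP2A, which untangles DNA, at 101 and 36.3 CPM. TOP2A had a UMI in 21.1% of epithelial cells and 10.8% of other cells, or 11.8% and 6.41% after thinning. Most of these UMIs lay in the 38 cells of group 5 described below, 535 of the 610 for TOP2A and 1117 of the 1275 for UBE2C. The rest of the epithelial cells had 13.99 CPM of TOP2A and 29.5 CPM of UBE2C. No mitotic cells were taken out of the other day 11 cells, so these levels cannot be set against theirs. None of 15 secretory pathway genes and none of 11 oxidative phosphorylation genes passed 2-fold, with medians of 0.40 and -0.52 on the log2 scale. Among 13 glycolysis genes the glucose transporter SLC2A3 was higher, at 945 and 293 CPM, while the hexokinases HK1 and HK2 and the phosphofructokinase PFKP were lower.

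The remaining lists concern other embryonic tissues and general cell states. Of 12 genes of visceral endoderm and endocytosis, 7 were higher and 2 lower, a list that shares FGB and HNF4A with those above. Pluripotency genes had 4 of 9 higher and 2 lower, germ cell genes 3 of 6 and 2, intestine and hindgut genes 4 of 8 and 2, and neural and neural crest genes 4 of 7 and 2. Of 5 kidney and Mullerian genes 3 were higher and 0 lower. Iron handling genes had 4 of 12 higher and 2 lower, and imprinted growth regulators 2 of 10 and 0, one of them DLK1 at 618 CPM in epithelial cells and 242 CPM in other cells. Of 4 blood genes 1 was higher and 0 lower, or 3 lower without groups 4 and 9, and their summed level was 7.79 CPM in epithelial cells and 5.47 CPM in other cells. Stress response and immediate early lists had 1 of 12 and 1 of 10 genes lower and 0 higher.

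Among genes of at least 100 CPM, the 25 highest ratios ran from 607 (345 to 1181) for the noncoding RNA LINC00348 to 6.78 for the adhesion receptor ADGRG6. LINC00348 had 629 UMIs in epithelial cells and 12 in other cells. SPTSSB, a small subunit of the first enzyme of sphingolipid synthesis, had 964 and 24 UMIs. Besides genes already named, the 25 held the cadherin CDH6 at 184 and 2.53 CPM and the tubulin-binding protein TPPP3 at 142 and 2.73 CPM. They also held the actin bundler LCP1 at 108 and 4.09 CPM, neuropeptide NPY at 389 and 19.5 CPM, the chemokine-like RARRES2 at 215 and 18.8 CPM, and the homeobox factor MSX2 at 256 and 31.1 CPM. LRRN1, DPP6, CTNNA2 and CASC15 were also among them. The 10 lowest ratios, from 0.0893 (0.0802 to 0.0992) for TECRL to 0.132 (0.128 to 0.137) for TTN, belonged to TECRL, MYO18B, FHOD3, CORIN, KCNQ5, MYOM1, LDB3, SMYD1, RBM24 and TTN, most of them sarcomere or heart muscle genes.

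The epithelial cells were then clustered among themselves without the rule genes, which gave 9 groups. Leading genes below defined the groups and are descriptions. Group 1, of 90 cells, was led by MIR205HG, at 1009 CPM against 142 CPM in the other epithelial cells. It had 575.9 CPM of MSX2, 313 CPM of ISL1, 204 CPM of GATA3, 75.3 CPM of PAX1 and 36.0 CPM of FOXE1. TTR was at 24.3 CPM there and FOXA2 at 6.70 CPM.

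Group 2, of 56 cells, held the liver proteins. SERPINA1 was at 5752 CPM against 95.8 CPM in the other epithelial cells, AFP at 1566 and 20.0 CPM, FGB at 852 and 7.52 CPM and ALB at 150.5 and 1.78 CPM. All 56 cells had TTR and APOA2 and 50 had NR5A2. Group 3, of 50 cells, had the most TTR at 10804 CPM and was led by SST at 557 CPM and DKK1, a secreted Wnt antagonist, at 325 CPM. SST was carried by 15 of its 50 cells, and NPY, at 1769 CPM, by 47. APELA, a peptide ligand of the apelin receptor, was at 298 CPM. Group 6, of 34 cells, was led by SHH at 180.0 CPM against 7.43 CPM, with TTR at 3683 CPM, FOXA2 at 77.4 CPM and AFP at 1.94 CPM.

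Group 7, of 30 cells, was led by GABRP at 219 CPM against 2.01 CPM and TFAP2A at 169 CPM against 2.74 CPM. LY6K, VTCN1, TGFBI and ANXA1 followed. FOXA1, FOXA2, HNF4A, HHEX, APOA2 and AFP had 0 UMIs among its 556092, and a count of 0 allows up to 3 UMIs. TTR was at 8.99 CPM. The group still had 3773 CPM of KRT19 and 451 CPM of EPCAM. It also had TAGLN, a smooth muscle and mesenchyme gene, at 1888 CPM, and COL1A1, found in all 30 cells, at 714 CPM. The smooth muscle list summed to 2426 CPM and the fibroblast list to 2350 CPM there, against 1616 and 2948 CPM in group 8. TAGLN was not particular to group 7, with 990 CPM in group 2, 961 CPM in group 3 and 1266 CPM in group 8. The smooth muscle list summed to 1033 CPM in group 2 and 1051 CPM in group 3. Group 5, of 38 cells, was led by mitotic genes such as NEK2, KIF14, UBE2C and TOP2A and held 782 CPM of TTR and 335 CPM of MIR205HG.

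Markers of other cell types stood out in groups 4, 8 and 9. Group 4, of 44 cells, had 8923 CPM of MYL7 and 3040 CPM of MYH6, and 28 of its cells had just 3 rule genes. The cardiomyocyte list summed to 27593 CPM there, with all 14 genes detected, and took a median of 2.39% of a cell's UMIs, against 3.40% in the other day 11 cells and 0.0657% to 0.253% in groups 1 to 3 and 5 to 8. Group 8, of 23 cells, was led by the collagens COL3A1 at 669 CPM and COL1A1 at 820 CPM, and the fibroblast list summed to 2948 CPM. Group 9 was 9 cells with endothelial genes, PLVAP in 6 of them and EMCN in 9. Its lectin FCN3 had 59 UMIs against 0 in the other 365 epithelial cells. All 10 endothelial markers were detected in it. In the same cells MYL7 was at 12595 CPM and SERPINA1 at 2355 CPM. A doublet caller marked 1 cell of the library and none of these, and so did not work here. The part of doublets in groups 4, 7, 8 and 9 was not tested.

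**Figure D3:**
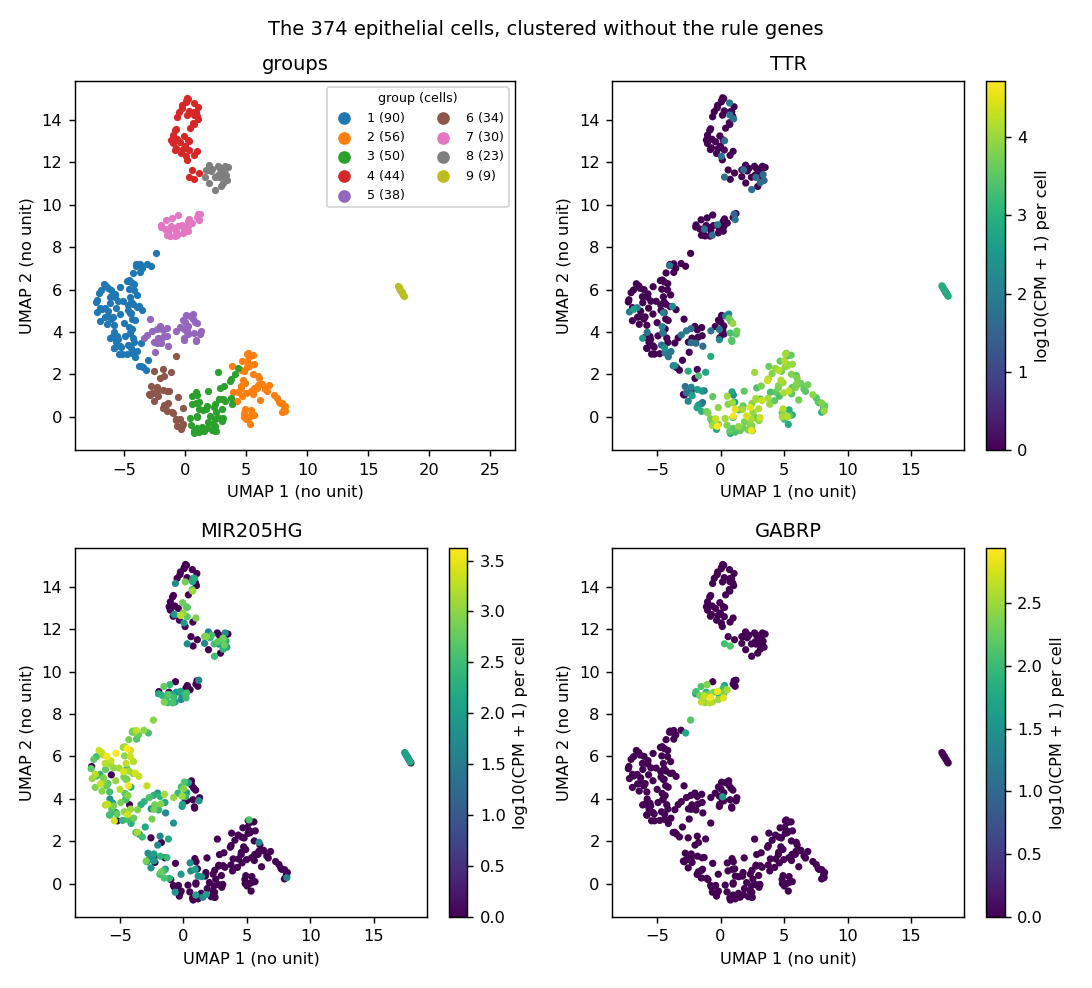
Map (UMAP) of the 374 epithelial cells, 1 point per cell, coloured by group in the first panel and by log10(CPM + 1) of TTR, MIR205HG and GABRP in the others. TTR is high in groups 2, 3 and 6, MIR205HG in group 1 and GABRP in group 7. Distances on the map have no unit.

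**Figure D4:**
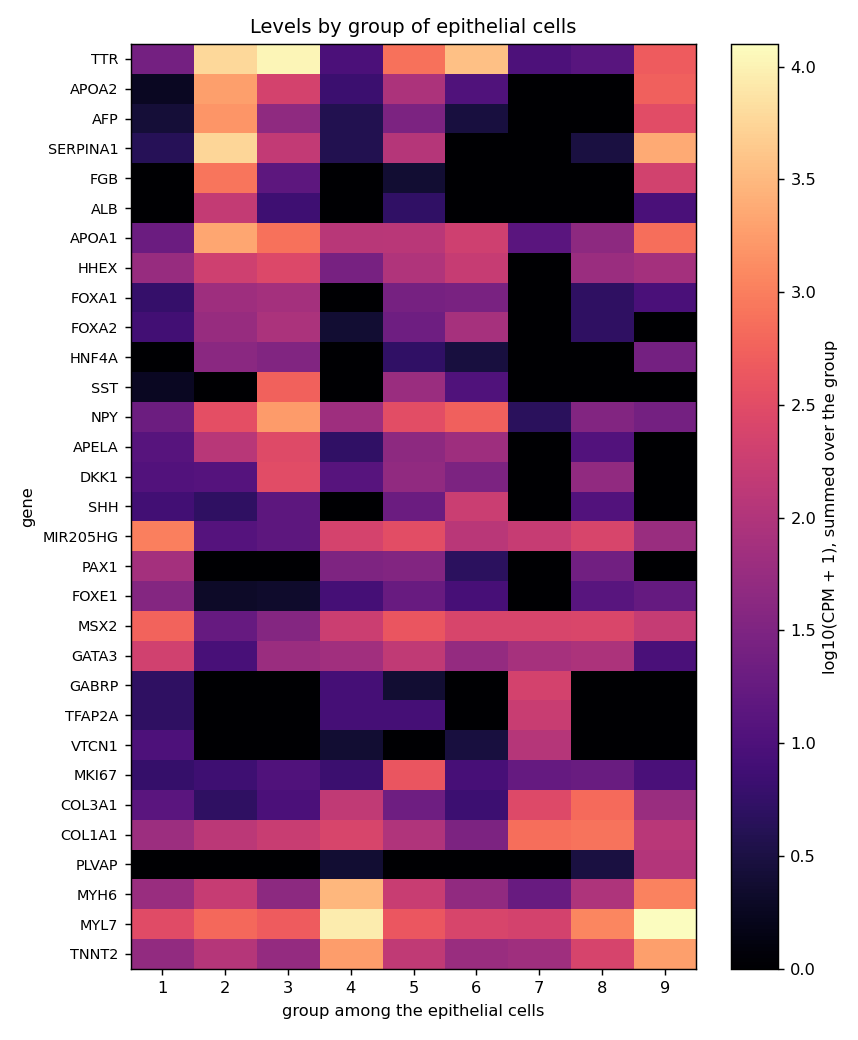
Levels of selected genes (rows) in the 9 groups of epithelial cells (columns), as log10(CPM + 1) of the UMIs summed over a group. SERPINA1, FGB and ALB are brightest in group 2, TTR in group 3, GABRP and TFAP2A in group 7, and muscle genes in groups 4 and 9.

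Clustering all 5683 day 11 cells, again without the rule genes, put 296 of the 374 epithelial cells (79.1%) into 1 cluster of 300 cells, and spread the other 78 over 10 clusters. That cluster held all 56, 50 and 34 cells of groups 2, 3 and 6 and 89 of the 90 cells of group 1, but 16 of 44 cells of group 4 and 0 of the 30 cells of group 7. Of the 78 cells outside it, 33 were in a cluster with NPPB and TAGLN among its leading genes and 9 in the cluster led by CD34 and FCN3. Just 3 rule genes were found in 34 of the 78 cells outside and in 10 of the 296 inside. With the 296 cells of the cluster alone, 17 of 19 hepatic secreted genes and 12 of 18 endoderm factors were higher, and 13 of 14 cardiomyocyte genes lower. Amnion genes then had 5 of 7 measured higher. TFAP2A had a log2 ratio of 0.51, against 6.35 with all epithelial cells.

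The same rule took fewer cells at day 15, and fewer of them carried TTR while more carried GABRP and TFAP2A. It took 84 of 5607 cells with CHIR (95% interval 1.20% to 1.85%) and 138 of 4015 cells with DMSO (3.44%, 2.90 to 4.05). The CHIR library had 1961 of 17016 genes (11.5%) higher and 1955 (11.5%) lower in these cells, and the DMSO library 1148 of 16923 (6.78%) higher and 3389 (20.0%) lower. Of the 25 genes highest at day 11, 15 of 22 measured were higher with CHIR and 22 of 24 with DMSO. Of the 10 lowest, 8 were lower with CHIR and 10 with DMSO. Over all genes the share was smaller: of those higher at day 11 and measured at day 15, 581 of 1185 (49.0%) were higher with CHIR and 661 of 1254 (52.7%) with DMSO. Of those lower at day 11, 832 of 2220 (37.5%) were lower with CHIR and 1448 of 2300 (63.0%) with DMSO.

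TTR was found in 52.4% of epithelial cells at day 11 (47.2 to 57.6), in 7.14% with CHIR (2.67 to 14.9) and in 16.7% with DMSO (10.9 to 24.0). Thinned to 5000 UMIs, the shares were 43.2%, 7.14% and 15.2%. The median cell that met the rule had 20829 UMIs with CHIR and 22030 with DMSO, so the lower shares at day 15 came with more UMIs per cell. GABRP went the other way, with 8.02% at day 11 (5.48 to 11.3), 46.4% with CHIR (35.5 to 57.6) and 44.2% with DMSO (35.8 to 52.9), or 5.36%, 36.9% and 26.1% after thinning. TFAP2A was found in 9.09%, 57.1% and 44.2% of the cells, and in 0.245%, 0.344% and 0.232% of the other cells of the same libraries.

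Taking both sets of genes, cells with TTR, APOA2 or AFP but neither GABRP nor TFAP2A were 197 of 374 at day 11 (52.7%), 8 of 84 with CHIR (9.52%) and 25 of 138 with DMSO (18.1%). Cells with GABRP or TFAP2A but none of TTR, APOA2 and AFP were 29 (7.75%), 50 (59.5%) and 67 (48.6%). Both sets were found in 6, 5 and 1 cells. MIR205HG was found in 207 of 374, 63 of 84 and 69 of 138 cells.

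The levels of TTR, HHEX and GABRP ran in the same order as their shares. TTR stood at 2835 CPM at day 11, 161.5 CPM with CHIR and 719 CPM with DMSO, against 8.82, 0.429 and 0.720 CPM in the other cells. HHEX stood at 115, 2.25 and 15.7 CPM, and GABRP at 22.0, 104 and 91.3 CPM. SERPINA1 was at 1017, 179 and 2825 CPM, and was carried by 93 of 374, 6 of 84 and 24 of 138 cells. CDH1 was at 122, 72.0 and 41.3 CPM and KRT19 at 2539, 992 and 2567 CPM. Day, treatment and library cannot be told apart in these values, and fewer cells of 1 kind cannot be told from more of another in a share.

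**Figure D5:**
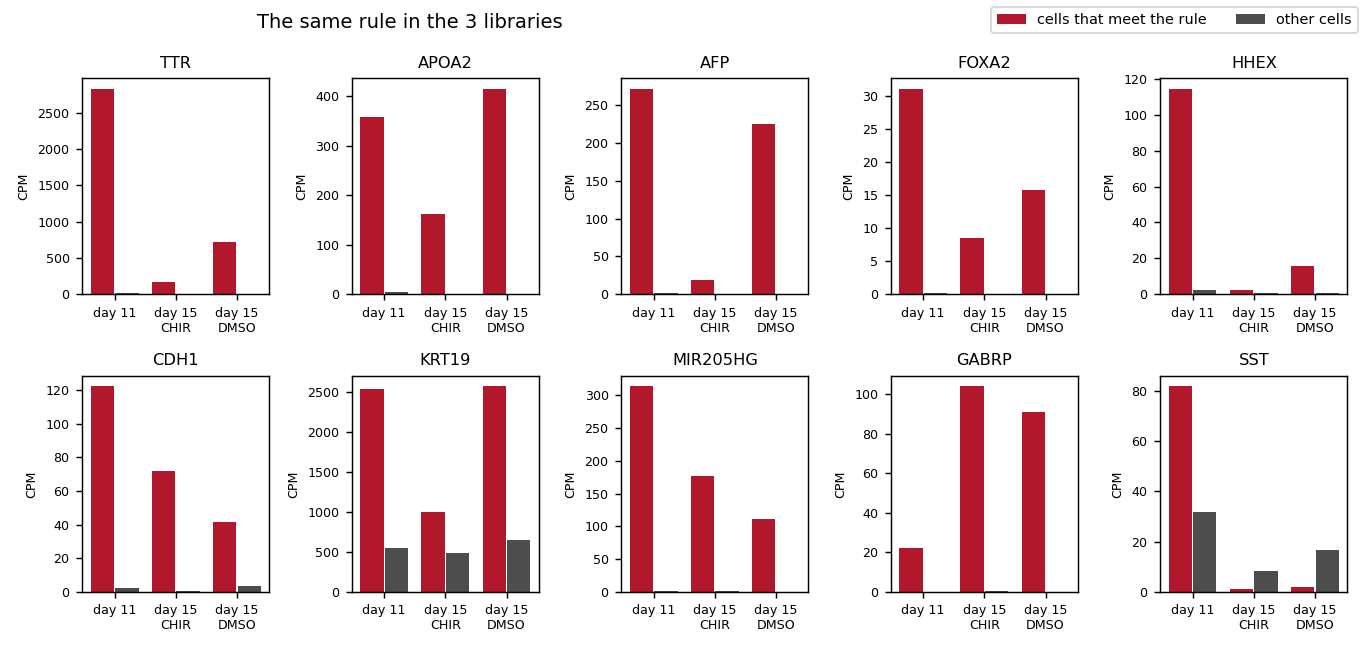
Level (CPM, summed UMIs) of 10 genes in the cells that met the rule (red) and the other cells (grey) of the 3 libraries, 1 library per bar pair, with axes that start at 0 and differ between panels. TTR and HHEX are highest at day 11, and GABRP is higher in both day 15 libraries.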

How the data were processed

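The single-cell data were 3 tables of raw counts that the authors deposited, whole-number UMIs per gene and cell, not normalised. Per the submitters' processing notes the reads were handled with Cell Ranger 6.1.1 on GRCh38, and for day 11 also R 4.1.0 and Seurat 4.3.0. Library totals were 75906387 UMIs at day 11 (5683 cells), 81076689 for CHIR (5607) and 65675862 for DMSO (4015). Chromatin samples were not used here.

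No cell was filtered out here. As deposited, genes per cell ran from 1811 to 5999 at day 11, 1802 to 5994 with CHIR and 1804 to 5990 with DMSO. Whether cells beyond such limits were removed before deposit, and how that would bear on the shares, was not tested. Counts were summed over a set of cells and divided by its total (CPM). Ratios have exact conditional binomial intervals and shares exact binomial (Clopper-Pearson) intervals, both at 95%. Log2 ratios had 0.5 added to each count, and genes needed 20 UMIs. The ratio and its interval were tested on simulated summed counts that had no spread between cells. That run cannot show how an uneven spread of UMIs over cells would widen an interval. Clusters were made with scanpy 1.11.5 on log counts scaled to 10000 per cell without the rule genes. For the 374 cells, 1000 variable genes, 15 components, 10 neighbours and Leiden resolution 0.5 were used, and for all day 11 cells 2000, 30, 15 and 0.6, with seed 1. Scrublet was run at an expected rate of 0.06. An alternative scaling used the TMM factors of edgeR 4.0.16.

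The cells and the 39 gene lists were chosen with earlier results of these data known. Genes named were the rule genes, the marker genes TTR, APOA2 and AFP, every endoderm factor, the 25 highest and 10 lowest ratios at 100 CPM or more, up to 4 genes past 2-fold of highest level per list and 8 leading genes per group. Another 23 genes, and the leading genes of clusters, were chosen after their values were seen. Some genes that this rule names are not reported here.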

Additional observations from a re-analysis of the deposited data

Results flagged for a closer look

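A few genes stood on opposite sides in the epithelial cells of day 11 and in the cells that met the same rule at day 15, each past 2-fold with its whole interval. None of these differences was tested, since each library is 1 sample. The hormone gene SST was 2.56-fold higher in epithelial cells at day 11, while its ratio to the other cells was 0.136 with CHIR and 0.114 with DMSO. At day 11 it was found in 5.61% of epithelial cells, and 15 cells of group 3 held 447 of its 494 UMIs. Outside group 3 the epithelial cells had 8.98 CPM of SST. The other day 11 cells had 32.0 CPM, carried by 1.43% of them. The day 15 ratios of SST rest on 2 UMIs with CHIR and 6 with DMSO. The ratio of DLK1, an imprinted Notch-like protein, was 2.56 at day 11 and 0.159 with CHIR, with 0.520 with DMSO between them. The ratio of CALB2, a calcium-binding protein, was 0.290 at day 11 and 7.87 with CHIR, where the epithelial cells had 3.38 CPM and the other cells 0.429 CPM. That CHIR ratio rests on 6 UMIs in 3.57% of the epithelial cells, and with DMSO the ratio of CALB2 was 0.267.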

How the results depend on the processing

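No paired analysis was possible because each single-cell group is 1 library, and the chromatin samples that share replicate numbers were not used here. The rule set how many cells were counted. With at least 2 of the 5 rule genes 710 cells (12.5%) were taken, and the share was 5.81% with at least 4, 5.38% with rule genes read after thinning, and 5.73% without the cells above the 90th percentile of UMIs. Chosen after seeing the data, the members of the main cluster alone were 5.21% and those outside groups 4 and 9 were 5.65%. Genes past 2-fold numbered 5087 higher with no minimum of UMIs, and 713 higher and 1723 lower with at least 200 UMIs. With the 2-gene rule, 1135 were lower.

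Medians (log2) moved by over 1.5-fold on the linear scale for polarity genes (2.39 with the 2-gene rule), endoderm factors (3.06 with that rule, 1.04 with 200 UMIs), hepatic proteins (5.07 with thinned rule genes, 7.62 against cells with no rule gene) and apolipoproteins (3.42 with no minimum). The cardiomyocyte median was -1.07 with the 2-gene rule, -3.22 with the 4-gene rule, -3.21 with thinned rule genes, -3.17 without the 20 members richest in muscle RNA, -3.34 in the main cluster and -4.14 without groups 4 and 9. Signs turned for hepatocyte enzymes (-0.42), pancreas, stomach and duodenum (-0.83) and kidney (-0.53) with 200 UMIs, for pancreas, stomach and duodenum after thinning (-1.16), for germ cell (-0.78), kidney (-0.38) and WNT9B (-0.87) in the main cluster, and for PLVAP (0.21) and PECAM1 (1.36) with the 2-gene rule. At resolution 1.0 the largest cluster held 44.1% of the cells. Of 181 named genes past 2-fold, 127 stayed so, the same way, under every alternative run. Both counts include the 5 rule genes, whose direction was fixed by the choice of cells and shows nothing. Of the other 54, 50 lost it with the 2-gene rule, 38 of them under that rule only. Scaling by TMM factors or without mitochondrial and ribosomal protein genes ended the 2-fold call of COL4A1, TGFB2, DUSP6 or FOS and of no other named gene. The cause of these shifts was not tested. Counts of a few UMIs per cell limit all shares of cells.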
